A study of Mus musculus with 14 samples.

Results

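The 26 genes described here make cholesterol or control its making: 8 enzymes of the mevalonate and prenyl steps, 11 enzymes from squalene to cholesterol, and 7 genes of control and transport (Srebf1, Srebf2, Scap, Insig1, Insig2, Stard4 and Lpin1). They were chosen by gene symbol from knowledge of the pathway, out of 40800 genes in the deposited count table. Earlier results of these data were known when the choice was made. All 26 were among the 17696 genes with enough reads to be tested. They were followed in mouse embryonic fibroblasts, connective tissue cells grown from mouse embryos, of which total RNA was sequenced in 14 libraries. The 7 groups of 2 libraries were cells without amino acids for 3, 6 and 12 h, cells without glucose for 3, 6 and 12 h, and control cells at 0 h. All cells had settled for a day in high-glucose medium with serum. For starvation they were washed, moved to medium lacking amino acids or lacking glucose, both with dialyzed serum, and later frozen in dialyzed serum. The control had no change of medium and was frozen in serum that had not been dialyzed, so each comparison with it holds this handling as well, whereas both starvations at 1 time share it. Since the only control is of 0 h, time in culture also differs in comparisons with it, and in those between times of 1 starvation. The labels name neither strain nor genotype, and their agent field for the glucose libraries reads only glucose, which the study's design text gives as starvation.

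Cells build cholesterol from acetyl-CoA by way of mevalonate, farnesyl diphosphate, squalene and lanosterol, and the same early steps feed the prenyl groups that anchor proteins in membranes. Most genes of the chain are switched on by the SREBP transcription factors, products of Srebf1 and Srebf2, which are made as membrane-bound precursors and carried by the escort protein Scap to the Golgi apparatus for release by proteases. When sterols are plentiful, the Insig proteins hold Scap back and transcription of the enzymes drops, and the kinase mTORC1, which senses amino acids, is known to raise SREBP activity.

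The libraries held 35270751 to 55349673 reads, and the lowest count of any of the 26 genes in any library was 105 reads, for Lpin1. Whether the 2 libraries of a group are separate cultures is not in the labels. The p-values therefore speak of the spread among these libraries only, and that spread may be technical. Of 8 fibroblast markers, 6 were above 1 CPM (read counts brought to one library size with TMM factors) in every group, while Lum was at 0 in every library and Thy1 was at 0 in all libraries but 1. The summed fibroblast markers stood at 6929.7 to 7207, 4721 to 4839.8 and 2141 to 2345 CPM after 3, 6 and 12 h without amino acids, 8338 to 8595, 7605 to 7709 and 5227 to 5262 CPM after 3, 6 and 12 h without glucose, and 7000.1 to 7723 CPM in the control. Of 5 macrophage markers, Adgre1 was at 0 throughout, Ptprc reached at most 0.06 CPM and Csf1r and Cd68 were above 1 CPM in every group, and the list summed to 15.1 to 23.9 CPM in starved and 14.4 to 14.9 CPM in control libraries. The 4 endothelial markers, nearly all of it Kdr, summed to 12.6 to 23.5 CPM in starved and 4.21 to 5.08 CPM in control libraries. The 4 epithelial markers, nearly all of it Krt19, summed to 36.4 to 37.9, 9.54 to 9.85 and 2.23 to 2.501 CPM after 3, 6 and 12 h without amino acids, 32.96 to 38.1, 25.03 to 26.1 and 17.996 to 19.2 CPM after 3, 6 and 12 h without glucose, and 42.2 to 43.4 CPM in the control. Adipocyte and hepatocyte markers were each under 1 CPM in every library. The part of these shifts in the results below was not tested.

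In the control, levels per kilobase of transcript spanned from 0.9201 CPM per kilobase for Lpin1, a phosphatidate phosphatase that also acts on SREBP, to 75.5 CPM per kilobase for Fdps, which makes farnesyl diphosphate. Srebf2, the SREBP gene tied most closely to sterol synthesis, stood at 61.1 CPM per kilobase and Srebf1 at 24.4 CPM per kilobase. All 26 genes together took 0.214% and 0.213% of the reads in the control libraries at 0 h, then 0.134% and 0.133% at 3 h, 0.107% and 0.106% at 6 h and 0.125% and 0.123% at 12 h without amino acids. Without glucose they took 0.198% and 0.199% at 3 h, 0.358% and 0.353% at 6 h and 0.292% and 0.295% at 12 h. Their share of the RNA thus shrank without amino acids and, from 6 h on, grew without glucose. By group mean, 17 genes were lowest at 6 h without amino acids, 6 at 12 h and 2 at 3 h of it. The remaining gene, Ggps1, which makes geranylgeranyl diphosphate, was lowest at 3 h without glucose. In contrast, 15 genes were highest at 6 h and 8 at 12 h without glucose, 2 in the control (Insig2 and Srebf1), and Ggps1 at 6 h without amino acids. The lowest and highest groups were not counted over all tested genes, so these counts have no share to be read against.

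**Figure D1:**
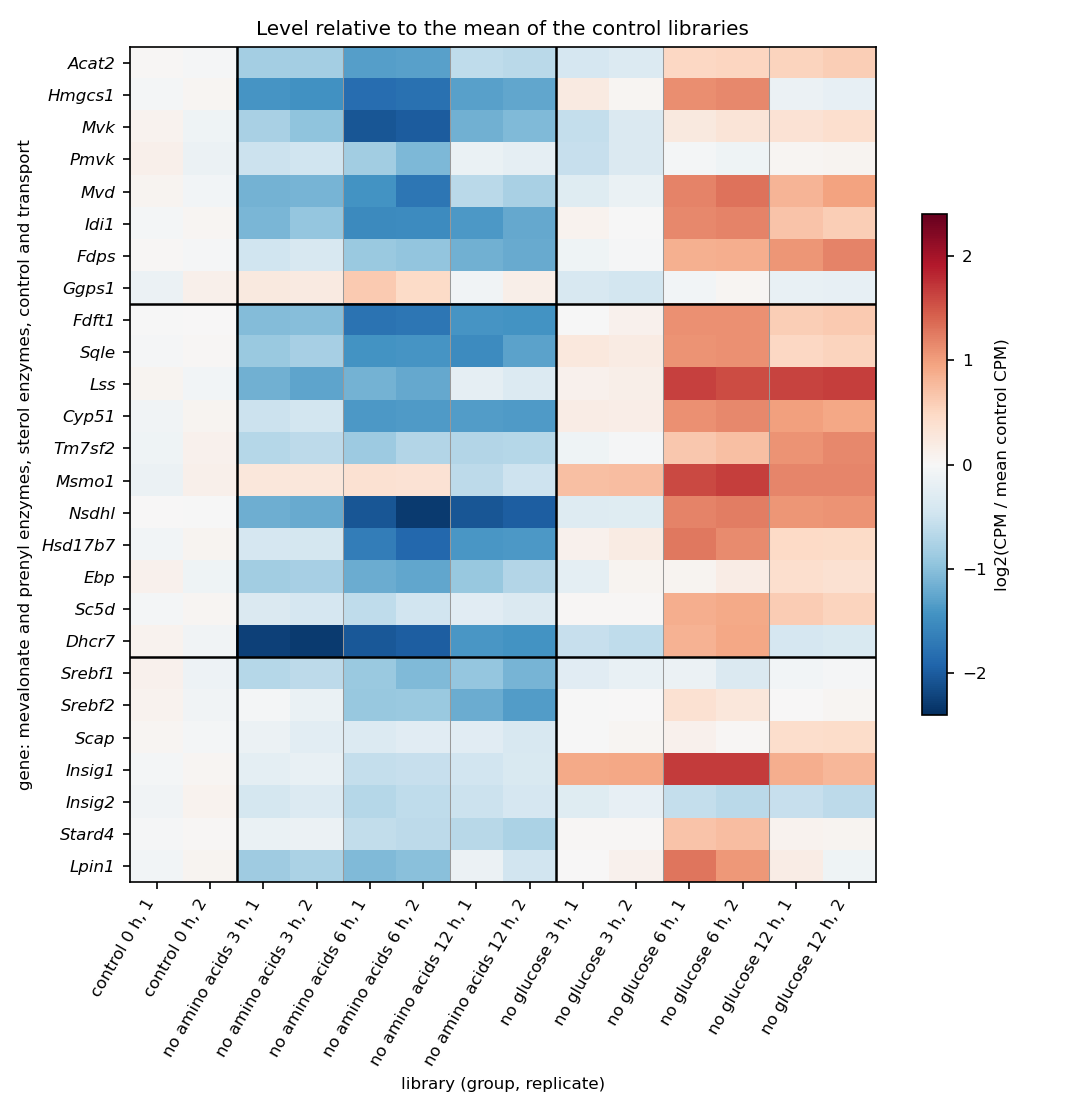
Level of each of the 26 genes (rows, ordered by step) in each of the 14 libraries (columns) as log2 of its CPM over the mean CPM of the control libraries. Blue marks levels under the control mean and red levels over it. The amino acid columns are blue for most genes and the glucose columns at 6 and 12 h are red for most. By group mean, Msmo1 (3 and 6 h) and Ggps1 are over the control mean without amino acids, while Insig2, Srebf1 and Ggps1 at 6 and 12 h, Pmvk at 6 h and Hmgcs1 and Dhcr7 at 12 h are under it without glucose.

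Because most of these genes moved together, the DNA before their start sites is shown for 4 of them: Hmgcs1 and Nsdhl, which differed most between the starvations at 6 h within the mevalonate and the sterol branch, Insig1, which rose most at 6 h without glucose, and Ggps1, which went the other way. Windows are from RefSeq (GRCm38.p6) and run 5′ to 3′ in the direction of the gene from 250 bases before to 50 bases after the start, and capitals mark matches on either strand to the sterol regulatory element TCACNCCAC, the NF-Y box CCAAT, which on the other strand reads ATTGG, and the E-box of letters CACGTG.
Hmgcs1 (chr13:119690101-119690400, plus strand): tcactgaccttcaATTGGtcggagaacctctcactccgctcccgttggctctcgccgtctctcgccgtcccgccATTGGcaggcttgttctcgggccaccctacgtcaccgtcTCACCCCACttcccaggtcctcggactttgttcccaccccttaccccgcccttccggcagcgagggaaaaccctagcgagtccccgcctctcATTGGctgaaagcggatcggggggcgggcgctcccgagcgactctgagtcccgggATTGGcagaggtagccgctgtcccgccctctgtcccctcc
Nsdhl (chrX:72918271-72918570, plus strand): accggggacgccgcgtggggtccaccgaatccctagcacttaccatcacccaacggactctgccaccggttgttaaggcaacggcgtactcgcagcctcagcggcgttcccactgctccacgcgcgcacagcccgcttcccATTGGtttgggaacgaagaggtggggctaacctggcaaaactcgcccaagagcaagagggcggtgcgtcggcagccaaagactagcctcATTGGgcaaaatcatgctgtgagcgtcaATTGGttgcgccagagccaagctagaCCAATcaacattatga
Insig1 (chr5:28071162-28071461, plus strand): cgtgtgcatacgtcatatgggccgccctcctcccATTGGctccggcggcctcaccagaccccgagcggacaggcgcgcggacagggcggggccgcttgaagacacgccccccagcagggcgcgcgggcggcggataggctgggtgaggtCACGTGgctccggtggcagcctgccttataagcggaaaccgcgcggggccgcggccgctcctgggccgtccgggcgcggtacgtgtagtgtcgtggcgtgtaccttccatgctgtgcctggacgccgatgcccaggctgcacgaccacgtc
Ggps1 (chr13:14063439-14063738, minus strand): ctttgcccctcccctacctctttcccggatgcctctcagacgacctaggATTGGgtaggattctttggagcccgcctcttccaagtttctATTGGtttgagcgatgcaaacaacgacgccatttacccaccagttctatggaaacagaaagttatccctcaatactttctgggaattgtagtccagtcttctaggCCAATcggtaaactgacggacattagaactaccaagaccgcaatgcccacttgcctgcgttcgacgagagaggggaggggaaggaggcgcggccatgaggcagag
A window was at hand for 22 of the 26 genes, and no match overlapped another in them. CCAAT lay in the windows of 19 of these 22 genes (86.4%), against 41.1% of 27025 genes with windows. CACGTG lay in 5 of 22 (22.7%), against 8.09% of all, and TCACNCCAC in 1 of 22, Hmgcs1, where it reads TCACCCCAC and begins 137 bases before the start, against 1.44% of all. Ggps1, whose level moved against the rest, had 3 CCAAT matches, and Acat2 and Lpin1 had none of the motifs. These matches describe letters only, not bound sites, and sequences close to a motif but not equal to it were not counted.

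After 3 h without amino acids the pathway was already lower along its length. Of the 26 genes, 23 fell and 2 rose, while 32.1% of all tested genes fell and 27.9% rose. Their median log2 fold change was -0.65, against -0.066 over all genes tested, and 7 of them fell by at least 2-fold, as did 9.49% of all genes. Both branches took part, with 7 of 8 mevalonate and prenyl enzymes and 10 of 11 sterol enzymes lower. In bulk RNA, fewer cells of a type and less RNA per cell cannot be told apart. Dhcr7, the reductase of the last step to cholesterol, had 7.17 and 6.89 CPM in starved libraries, against 35.7 and 31.9 CPM in control libraries (log2 fold change -2.27, SE 0.091, adjusted p = 1.13e-18). Hmgcs1, which makes HMG-CoA at the entry to mevalonate, had 42.02 and 40.7 CPM in starved libraries, against 109 and 114 CPM in control libraries (log2 fold change -1.43, SE 0.062, adjusted p = 7.12e-18). For Lss, which closes the sterol rings as lanosterol synthase, starved libraries had 28.3 and 26.1 CPM and control libraries 65.9 and 59.998 CPM (log2 fold change -1.21, SE 0.068, adjusted p = 2.75e-15). In all 3 genes the groups were far apart. The risers were small in size: Msmo1, a methylsterol oxidase, had 148 and 148 CPM in starved and 111 and 134 CPM in control libraries (log2 fold change 0.27, SE 0.065, adjusted p = 0.000567). Ggps1 had 29.3 and 28.8 CPM in starved and 22.5 and 27.1 CPM in control libraries (log2 fold change 0.23, SE 0.093, adjusted p = 0.03404). The groups did not overlap in either gene, and neither did they in 78.4% of all tested genes. Both calls ended without control library 1 (0.15 for Msmo1 and 0.10 for Ggps1) and with scaling by library totals. That scaling put 0 of the 26 higher and 24 lower. Of all called genes, 46.5% were higher, and 34.2% with library totals. Srebf2 did not pass, with 299 and 277 CPM in starved and 328 and 293 CPM in control libraries (log2 fold change -0.11, SE 0.0601, adjusted p = 0.126). Srebf1, the other SREBP gene, was called lower at this time (log2 fold change -0.66, SE 0.078, adjusted p = 4.66e-08). A difference was not called for Srebf2, which does not show that its RNA was unchanged. Without control library 2 it was called lower (-0.19, adjusted p = 0.0148).

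At 6 h without amino acids most of the genes reached their lowest levels. Of the 26 genes, 24 fell and 2 rose, beside 33.3% and 32.3% of all genes, with a median of -1.10 against -0.0069 over all genes. At least 2-fold lower were 14 genes, as were 12.9% of all. Nsdhl, a dehydrogenase in the removal of methyl groups from lanosterol, had 7.61 and 6.46 CPM in starved libraries, against 31.8 and 31.6 CPM in control libraries (log2 fold change -2.18, SE 0.086, adjusted p = 6.02e-19). Mvk, mevalonate kinase, had 7.91 and 8.27 CPM in starved and 35.1 and 30.8 CPM in control libraries (log2 fold change -2.02, SE 0.099, adjusted p = 8.15e-17). Dhcr7 remained low, at 8.27 and 8.56 CPM in starved libraries (log2 fold change -2.01, SE 0.088, adjusted p = 6.61e-18). These genes stood at 22.2%, 24.6% and 24.9% of their control means. Ggps1 and Msmo1 were again the risers, and here each kept its call with library totals. Ggps1 had 38.2 and 34.2 CPM in starved and 22.5 and 27.1 CPM in control libraries (log2 fold change 0.54, SE 0.092, adjusted p = 6.34e-06). Msmo1 had 157 and 157 CPM in starved and 111 and 134 CPM in control libraries (log2 fold change 0.36, SE 0.065, adjusted p = 1.67e-05). Msmo1 acts in the same demethylation steps as Nsdhl, and their levels moved in opposite directions. The control genes were lower too. Srebf2 had 166 and 167 CPM in starved and 328 and 293 CPM in control libraries (log2 fold change -0.90, SE 0.061, adjusted p = 1.33e-13). Srebf1 had 56.3 and 50.6 CPM in starved and 113 and 96.8 CPM in control libraries (log2 fold change -0.97, SE 0.079, adjusted p = 2.26e-11).

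After 12 h without amino acids, 23 of the 26 genes were lower and 3 did not pass the test, beside 32% of all genes lower and 34.9% higher. The median was -0.76, against 0.057 over all genes, and 12 genes were at least 2-fold lower, as were 14.2% of all. All 11 sterol enzymes fell, now with Msmo1 among them, which had 79.2 and 86.4 CPM in starved and 111 and 134 CPM in control libraries (log2 fold change -0.56, SE 0.065, adjusted p = 9.58e-09). Nsdhl had 7.69 and 8.08 CPM in starved and 31.8 and 31.6 CPM in control libraries (log2 fold change -2.01, SE 0.084, adjusted p = 1.58e-18). Fdft1, squalene synthase and so the first enzyme that serves sterols alone, had 33.6 and 33.1 CPM in starved and 88.1 and 89.9 CPM in control libraries (log2 fold change -1.42, SE 0.059, adjusted p = 1.28e-18). Dhcr7 was at 12.9 and 12.5 CPM in starved libraries (log2 fold change -1.41, SE 0.084, adjusted p = 5.35e-15), above its 3 h libraries and still under the control. The smallest called falls were those of Lss and of Sc5d, a sterol desaturase. Lss had 54.05 and 50.3 CPM in starved and 65.9 and 59.998 CPM in control libraries (log2 fold change -0.27, SE 0.064, adjusted p = 0.000498). Sc5d had 58.7 and 55.9 CPM in starved and 68.5 and 73.5 CPM in control libraries (log2 fold change -0.31, SE 0.064, adjusted p = 9.58e-05). The call of Lss ended with library totals (-0.14, adjusted p = 0.0632). Pmvk, Ggps1 and Lpin1 did not pass. Pmvk, phosphomevalonate kinase, had 19.2 and 18.5 CPM in starved and 23.4 and 19.6 CPM in control libraries. Ggps1 had 23.4 and 27.4 CPM in starved and 22.5 and 27.1 CPM in control libraries, and Lpin1 had 4.66 and 3.74 CPM in starved and 4.93 and 5.34 CPM in control libraries. The summed fibroblast markers were lowest in these libraries, but the markers did not move alike. Vim, which encodes vimentin, was at 101 and 97.9 CPM in starved and 2359.7 and 2132 CPM in control libraries, whereas Fn1, which encodes fibronectin, was at 1833 and 1654 CPM in starved and 1590.0 and 1439.8 CPM in control libraries. Their part in the result was not tested.

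**Figure D2:**
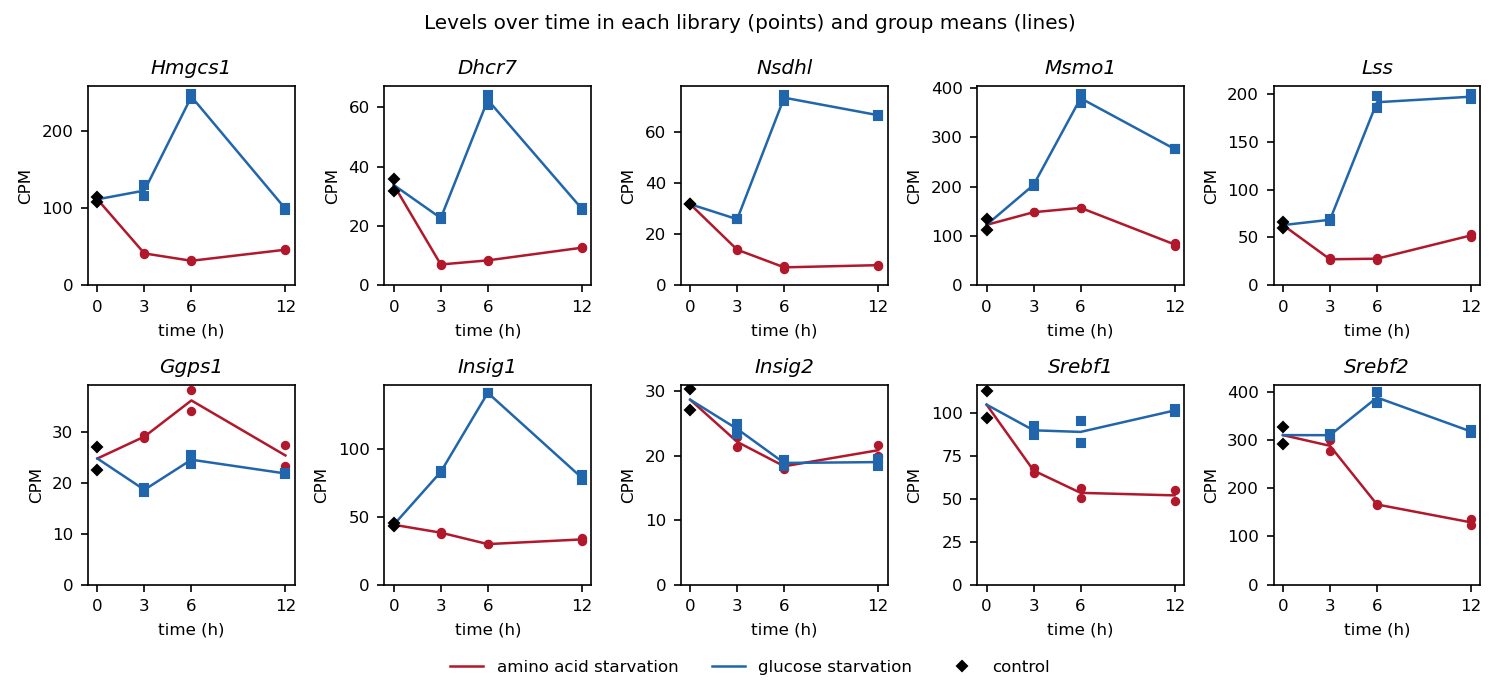
CPM of 10 of the genes against time in h, with 1 point per library, red circles for amino acid starvation, blue squares for glucose starvation, black diamonds for the control at 0 h, and lines through group means. Hmgcs1, Dhcr7 and Insig1 peak at 6 h without glucose and are lower again at 12 h, Nsdhl and Lss stay high, and the red points of all but Ggps1 and Insig2 lie under the blue points from 6 h on.

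Loss of glucose gave another course. At 3 h the genes were divided: 4 rose, 9 fell and 13 did not pass, beside 20.3% and 23.1% of all genes higher and lower. With library totals 2 rose and 13 fell, and the share of all called genes that were higher was 46.8%, and 25.7% with library totals. The median of the 26 genes was 0.011, or -0.16 with library totals, against -0.039 over all genes. Insig1, which holds Scap in the endoplasmic reticulum and is itself switched on by SREBP, had 82.8 and 83.9 CPM in starved libraries, against 43.04 and 45.5 CPM in control libraries (log2 fold change 0.91, SE 0.062, adjusted p = 5.49e-13). Msmo1 had 201 and 206 CPM in starved and 111 and 134 CPM in control libraries (log2 fold change 0.73, SE 0.065, adjusted p = 1.78e-10). Sqle and Cyp51 were the other 2 risers, and with library totals neither passed. The lowest values were those of Dhcr7, Mvk and Pmvk. Dhcr7 had 23.1 and 22.3 CPM in starved and 35.7 and 31.9 CPM in control libraries (log2 fold change -0.58, SE 0.082, adjusted p = 1.22e-06). Mvk had 22.2 and 25.9996 CPM in starved and 35.1 and 30.8 CPM in control libraries (log2 fold change -0.45, SE 0.092, adjusted p = 0.000174). Pmvk had 14.6 and 16.96 CPM in starved and 23.4 and 19.6 CPM in control libraries (log2 fold change -0.44, SE 0.103, adjusted p = 0.000837). Of the mevalonate and prenyl enzymes 5 of 8 fell, and of the sterol enzymes 3 of 11 rose and 2 fell. The smallest falls were not stable: those of Mvd, Srebf1 and Insig2 were each lost in several alternatives, among them leaving out a control library.

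At 6 h without glucose most of the pathway was higher. Of the 26 genes, 20 rose and 2 fell, beside 23.3% and 24.2% of all genes, and 12 rose by at least 2-fold, as did 4.88% of all genes. The median was 0.89, against -0.008001 over all genes. Among all called genes 49.0% were higher, and 33.1% with library totals, while 19 of the 26 genes rose under that scaling. Insig1 had 142 and 142 CPM in starved libraries, against 43.04 and 45.5 CPM in control libraries (log2 fold change 1.68, SE 0.062, adjusted p = 4.22e-19). Msmo1 had 369.6 and 388 CPM in starved and 111 and 134 CPM in control libraries (log2 fold change 1.63, SE 0.065, adjusted p = 3.46e-18). Lss had 197 and 185 CPM in starved libraries (log2 fold change 1.60, SE 0.064, adjusted p = 2.85e-18). Hmgcs1 had 241 and 248 CPM in starved libraries (log2 fold change 1.13, SE 0.059, adjusted p = 1.76e-15). Hmgcs1 at the entry to mevalonate, the ring-closing enzyme and the Scap retention factor thus all stood at more than 2-fold of the control. Their groups did not overlap, and neither did those of 72% of all tested genes. Lpin1, at low counts, had 12.5 and 10.6 CPM in starved and 4.93 and 5.34 CPM in control libraries (log2 fold change 1.17, SE 0.15, adjusted p = 2.55e-07). The exceptions were few. Insig2, the second Insig gene, had 19.4 and 18.3 CPM in starved and 27.04 and 30.3 CPM in control libraries (log2 fold change -0.60, SE 0.089, adjusted p = 1.71e-06). Srebf1 had 95.2 and 82.7 CPM in starved and 113 and 96.8 CPM in control libraries (log2 fold change -0.24, SE 0.077, adjusted p = 0.0129). This call ended without control library 1 (-0.12, adjusted p = 0.267) and without glucose library 2 of 6 h (-0.14, adjusted p = 0.2496). Mvk was the smallest called riser, with 38.8 and 40.8 CPM in starved and 35.1 and 30.8 CPM in control libraries (log2 fold change 0.27, SE 0.089, adjusted p = 0.0121). It lost its call with library totals (0.14, adjusted p = 0.187), without control library 2 and without glucose library 2 of 6 h. Pmvk, Ebp, which encodes a sterol isomerase, Scap and Ggps1 did not pass, with log2 fold changes of -0.069 (SE 0.101), 0.12 (SE 0.0904), 0.068 (SE 0.0598) and -0.013 (SE 0.095).

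By 12 h without glucose, 17 genes were higher and 3 lower, beside 30.4% and 28% of all genes, and the median was 0.49 against 0.0079 over all genes. Of the sterol enzymes 10 of 11 rose and of the mevalonate and prenyl enzymes 5 of 8. Lss had 195 and 199.6 CPM in starved libraries, against 65.9 and 59.998 CPM in control libraries (log2 fold change 1.65, SE 0.064, adjusted p = 5.81e-19). Msmo1 had 276 and 276 CPM in starved and 111 and 134 CPM in control libraries (log2 fold change 1.17, SE 0.065, adjusted p = 2.15e-15). Fdps had 219 and 239 CPM in starved and 107 and 102 CPM in control libraries (log2 fold change 1.13, SE 0.058, adjusted p = 4.13e-16). These genes stayed above the control, but Hmgcs1, at the entry to mevalonate, and Dhcr7, of the last step, were now under it. Hmgcs1 had 101 and 97.8 CPM in starved and 109 and 114 CPM in control libraries (log2 fold change -0.17, SE 0.059, adjusted p = 0.0165). That call was lost without control library 2 (-0.13, adjusted p = 0.125) and without glucose library 2 of 12 h (-0.14, adjusted p = 0.1197). Dhcr7 had 25.5 and 26.2 CPM in starved and 35.7 and 31.9 CPM in control libraries (log2 fold change -0.39, SE 0.0802, adjusted p = 0.000126). Insig2 had 19.5 and 18.5 CPM in starved and 27.04 and 30.3 CPM in control libraries (log2 fold change -0.59, SE 0.088, adjusted p = 1.18e-06). Insig1 had 80.7 and 77.3 CPM in starved and 43.04 and 45.5 CPM in control libraries (log2 fold change 0.84, SE 0.061, adjusted p = 1.29e-12). Both Insig genes were called, in opposite directions, at 3, 6 and 12 h, although the call of Insig2 at 3 h was among the unstable ones. Scap, flat before, had 146 and 149.5 CPM in starved and 114 and 105 CPM in control libraries (log2 fold change 0.43, SE 0.059, adjusted p = 3.42e-07). Srebf1 had 101 and 102 CPM and Srebf2 314 and 321 CPM in starved libraries, and neither passed (-0.048, SE 0.077, and 0.034, SE 0.06001). All comparisons with the control share its 2 libraries and are not independent of each other.

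Setting the starvations against each other at the same time leaves the control and its handling out. At 3 h, 22 of the 26 genes were lower without amino acids than without glucose and 1 was higher, beside 27.7% and 26.7% of all genes, with a median of -0.58 against -0.026. At 6 h 24 were lower and 1 higher, beside 32.3% and 31.5% of all, with a median of -2.002 against -0.0062, and 21 were lower by at least 2-fold, as were 11.1% of all. At 12 h 23 were lower and 1 higher, beside 31.6% and 32.5% of all, with a median of -1.27 against 0.028. At that time 50.8% of all called genes were higher, and 65.5% with library totals, under which 22 of the 26 were lower and 2 higher. The gap between the starvations was thus widest at 6 h by its median.

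The largest gap at 3 h was that of Dhcr7 (log2 fold change -1.69, SE 0.094, adjusted p = 5.88e-15), with the library values given above. Hmgcs1 had 42.02 and 40.7 CPM without amino acids and 130.02 and 116 CPM without glucose (log2 fold change -1.57, SE 0.063, adjusted p = 3.64e-18). Lss had 28.3 and 26.1 CPM without amino acids and 67.2 and 69.8 CPM without glucose (log2 fold change -1.33, SE 0.068, adjusted p = 9.84e-16). In these genes the 3 h libraries without glucose lay at least 2-fold above those without amino acids. Stard4, which carries sterols between membranes, showed the smallest called difference at 3 h, with 62.5 and 63.6 CPM without amino acids and 71.3 and 71.3 CPM without glucose (log2 fold change -0.18, SE 0.0598, adjusted p = 0.0136). It lost its call without either of the 2 amino acid libraries of 3 h. At 6 h Nsdhl had 7.61 and 6.46 CPM without amino acids and 72.2 and 74.5 CPM without glucose, 10.5-fold lower (log2 fold change -3.39, SE 0.086, adjusted p = 2.73e-23). Hsd17b7, a reductase of the same demethylation steps, had 8.15 and 6.95 CPM without amino acids and 61.9 and 56.3 CPM without glucose (log2 fold change -2.97, SE 0.092, adjusted p = 3.56e-21). Hmgcs1 had 31.3 and 32.3 CPM without amino acids and 241 and 248 CPM without glucose (log2 fold change -2.94, SE 0.064, adjusted p = 1.09e-24). No library without amino acids came near those without glucose in these genes. Scap was the smallest called fall, with 87.5 and 90.5 CPM without amino acids and 118 and 112 CPM without glucose (log2 fold change -0.37, SE 0.0601, adjusted p = 4.45e-06).

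At 12 h Nsdhl had 7.69 and 8.08 CPM without amino acids and 66.3 and 66.7 CPM without glucose (log2 fold change -3.08, SE 0.084, adjusted p = 1.07e-22). Fdps had 47.03 and 45.2 CPM without amino acids and 219 and 239 CPM without glucose (log2 fold change -2.31, SE 0.061, adjusted p = 5.39e-23). Cyp51, lanosterol demethylase, had 52.4 and 51.8 CPM without amino acids and 261 and 253 CPM without glucose (log2 fold change -2.30, SE 0.0595, adjusted p = 3.34e-23). The order of the genes therefore changed with time, with Nsdhl at the low end at 6 and 12 h. Pmvk had 19.2 and 18.5 CPM without amino acids and 22.2 and 22.6 CPM without glucose at 12 h (log2 fold change -0.25, SE 0.099, adjusted p = 0.0303). The call ended with library totals (-0.011, adjusted p = 0.932), without amino acid library 2 of 12 h and without either glucose library of 12 h.

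Ggps1, at the branch to geranylgeranyl groups, was the gene with higher levels without amino acids at each time. It had 29.3 and 28.8 CPM without amino acids and 19.03 and 18.2 CPM without glucose at 3 h (log2 fold change 0.64, SE 0.097, adjusted p = 2.02e-06). At 6 h it had 38.2 and 34.2 CPM without amino acids and 23.6 and 25.5 CPM without glucose (log2 fold change 0.56, SE 0.093, adjusted p = 5.81e-06). At 12 h it had 23.4 and 27.4 CPM without amino acids and 21.9 and 21.7 CPM without glucose (log2 fold change 0.22, SE 0.094, adjusted p = 0.04396). That difference was 0.073 (adjusted p = 0.5998) without amino acid library 2 of 12 h. It was also lost without either glucose library of 12 h, or without 1 of 5 libraries of 3 or 6 h that enter only through the pooled spread. Fdps, which shares the substrate isopentenyl diphosphate, had levels on the other side at all 3 times (-0.37, SE 0.0597, -1.77, SE 0.0602, and -2.31, SE 0.061). Insig2 did not pass at any time (-0.13, SE 0.0895, -0.038, SE 0.091, and 0.13, SE 0.089). Insig1, in contrast, differed at each time (-1.12, SE 0.063, -2.24, SE 0.063, and -1.24, SE 0.062). At 12 h Insig2 was called higher without amino acids with library totals (0.37, adjusted p = 0.000562).

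**Figure D3:**
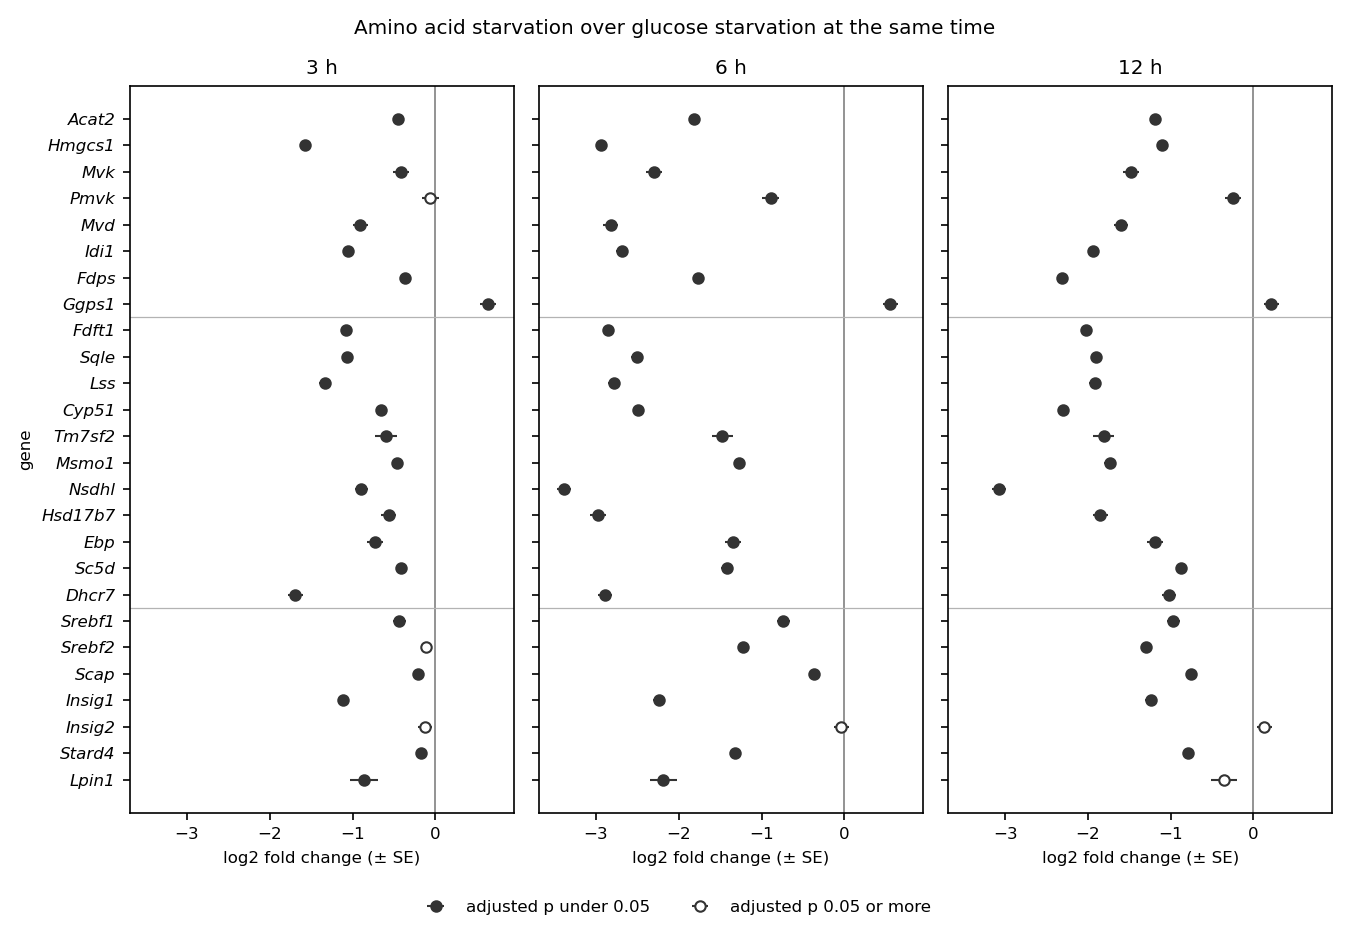
Log2 fold change of amino acid starvation over glucose starvation at 3, 6 and 12 h for each gene, with bars of 1 SE; filled points passed at an adjusted p under 0.05 and open points did not. Nearly all points lie left of 0, most genes farthest left at 6 h and Fdps, Tm7sf2, Msmo1, Scap, Srebf1 and Srebf2 at 12 h, Ggps1 lies right of 0 at all 3 times, and Insig2 lies at or near 0.

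The 5 control genes, followed over time, divided as well. Without amino acids Srebf2 had 328 and 293 CPM in the control at 0 h, 299 and 277 CPM at 3 h, 166 and 167 CPM at 6 h and 135 and 123 CPM at 12 h. Its mean was 92.8%, 53.6% and 41.6% of the control mean at 3, 6 and 12 h. Without glucose it had 309 and 312 CPM at 3 h, 399.9 and 377 CPM at 6 h and 314 and 321 CPM at 12 h, called higher at 6 h (log2 fold change 0.32, SE 0.0601, adjusted p = 5.06e-05) and not called at 3 or 12 h. Srebf1 had 113 and 96.8 CPM in the control at 0 h, 64.9 and 68.01 CPM at 3 h, 56.3 and 50.6 CPM at 6 h and 55.3 and 48.7 CPM at 12 h without amino acids, lower at each time (log2 fold changes of -0.66, -0.97 and -1.01). Without glucose it had 87.1 and 92.7 CPM at 3 h, 95.2 and 82.7 CPM at 6 h and 101 and 102 CPM at 12 h. Its levels there stayed closer to the control than those without amino acids. Scap had 114 and 105 CPM in the control at 0 h, 99.7 and 92.1 CPM at 3 h, 87.5 and 90.5 CPM at 6 h and 91.1 and 84.2 CPM at 12 h without amino acids, a small fall that passed at 3, 6 and 12 h (-0.19, SE 0.059999, -0.30, SE 0.0599, and -0.32, SE 0.0598). At 3 h that call ended without control library 1 or without amino acid library 2. Without glucose Scap had 109 and 113 CPM at 3 h, 118 and 112 CPM at 6 h and 146 and 149.5 CPM at 12 h. Insig1 had 43.04 and 45.5 CPM in the control at 0 h, 37.7 and 39.1 CPM at 3 h, 29.8 and 30.1 CPM at 6 h and 32.4 and 34.5 CPM at 12 h without amino acids. Without glucose it had 82.8 and 83.9 CPM at 3 h, 142 and 142 CPM at 6 h and 80.7 and 77.3 CPM at 12 h. Its fall without amino acids (-0.20, SE 0.063, -0.56, SE 0.064, and -0.40, SE 0.063) was smaller than the median of the 19 synthesis enzymes (-0.81, -1.37 and -1.10). Single enzymes fell less than Insig1 or rose. At 3 h the call of Insig1 was lost without control library 2 or amino acid library 1. Insig2 had 27.04 and 30.3 CPM in the control at 0 h, 21.3 and 22.9 CPM at 3 h, 17.9 and 18.8 CPM at 6 h and 19.97 and 21.7 CPM at 12 h without amino acids. It had 23.3 and 24.96 CPM at 3 h, 19.4 and 18.3 CPM at 6 h and 19.5 and 18.5 CPM at 12 h without glucose, lower than the control in either starvation. Stard4 had 68.7 and 71.1 CPM in the control at 0 h, 62.5 and 63.6 CPM at 3 h, 46.3 and 45.3 CPM at 6 h and 43.8 and 41.1 CPM at 12 h without amino acids, and its small fall at 3 h was lost in 6 of the 8 alternatives that keep all libraries. Without glucose it had 71.3 and 71.3 CPM at 3 h, 113 and 116 CPM at 6 h and 73.8 and 73.2 CPM at 12 h, called higher at 6 h and not called at 3 or 12 h.

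Between 12 h and 3 h of glucose starvation, 18 of the 26 genes rose and 2 fell, beside 31.8% and 25.5% of all genes, with a median of 0.46 against 0.066. Lss (log2 fold change 1.52, SE 0.064, adjusted p = 3.57e-18) and Nsdhl (log2 fold change 1.36, SE 0.077, adjusted p = 3.60e-15) rose most. Hmgcs1 and Insig2 were the 2 that fell (-0.31, SE 0.0596, and -0.34, SE 0.0899). Between 12 h and 3 h of amino acid starvation, 7 rose and 13 fell, beside 35.5% and 32.9% of all genes. With library totals 11 rose and 8 fell, so the balance of directions rests on the scaling. The median was -0.20, and 0.11 with library totals, against 0.044 over all genes, and 51.9% of all called genes were higher, and 68.0% with library totals. Srebf2 fell most (log2 fold change -1.16, SE 0.061, adjusted p = 3.90e-16), followed by Hsd17b7 (-0.98, SE 0.092), Cyp51 (-0.87, SE 0.059) and Msmo1 (-0.84, SE 0.065), whereas Lss (0.94, SE 0.068) and Dhcr7 (0.85, SE 0.095) rose. Directions of the genes named here held under each scaling. Without amino acid library 1 of 3 h or of 12 h the risers numbered 4 or 3. The change from 3 to 12 h was then compared between the starvations. For 20 genes it was lower and for 2 higher without amino acids than without glucose, beside 25.7% and 21.7% of all genes (45.8% of all calls higher, and 66.0% with library totals). Nsdhl (log2 fold change -2.18, SE 0.12, adjusted p = 3.51e-15), Fdps (log2 fold change -1.95, SE 0.084, adjusted p = 3.42e-17) and Cyp51 (log2 fold change -1.65, SE 0.082, adjusted p = 6.06e-16) had the largest such differences, and Dhcr7 (log2 fold change 0.66, SE 0.13, adjusted p = 6.72e-05) and Hmgcs1 (log2 fold change 0.47, SE 0.087, adjusted p = 4.88e-05) had the opposite sign.

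The turn at 6 h was tested between 12 h and 6 h, a comparison chosen after the levels had been seen. Without amino acids 14 of the 26 genes rose and 4 fell from 6 to 12 h, beside 27.8% and 27.1% of all genes, and 50.6% of all calls were higher, and 69.3% with library totals. Mvk (log2 fold change 0.92, SE 0.101, adjusted p = 6.90e-09), Lss (log2 fold change 0.91, SE 0.067, adjusted p = 1.99e-12) and Mvd, a decarboxylase (log2 fold change 0.86, SE 0.093, adjusted p = 5.08e-09), rose most. Msmo1 (log2 fold change -0.92, SE 0.065, adjusted p = 8.02e-13) and Ggps1 (log2 fold change -0.51, SE 0.091, adjusted p = 2.24e-05) fell most. These were the genes that had risen at 6 h against the control. Both comparisons use the same 6 h libraries and are not independent of each other. Without glucose 14 fell and 5 rose, beside 21.9% and 25.6% of all genes. Hmgcs1 (log2 fold change -1.30, SE 0.059, adjusted p = 9.05e-17), Dhcr7 (log2 fold change -1.28, SE 0.0798, adjusted p = 8.87e-14) and Lpin1 (log2 fold change -1.11, SE 0.15, adjusted p = 5.88e-07) fell most. Tm7sf2, a sterol reductase (log2 fold change 0.42, SE 0.12, adjusted p = 0.00339), Scap (log2 fold change 0.36, SE 0.0596, adjusted p = 9.27e-06) and Fdps (log2 fold change 0.27, SE 0.057, adjusted p = 0.000215) rose. Without glucose library 1 of 12 h the risers numbered 3.

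Most of the enzymes not described singly kept to the common course. Acat2, the thiolase that joins acetyl-CoA units, had 146 and 140.3 CPM in the control at 0 h, 81.4 and 81.6 CPM at 3 h, 57.5 and 58.4 CPM at 6 h and 93.7 and 91.2 CPM at 12 h without amino acids. Without glucose it had 108 and 115 CPM at 3 h, 203 and 205 CPM at 6 h and 208 and 215 CPM at 12 h. Idi1, isopentenyl diphosphate isomerase, had 113 and 120.4 CPM in the control at 0 h, 54.4 and 61.05 CPM at 3 h, 40.6 and 40.9 CPM at 6 h and 44.9 and 50.1 CPM at 12 h without amino acids. Its levels without glucose were 123 and 116 CPM at 3 h, 258 and 267 CPM at 6 h and 187 and 176 CPM at 12 h. Sqle, squalene epoxidase, had 146 and 152 CPM in the control at 0 h, 80.7 and 85.9 CPM at 3 h, 54.7 and 55.9 CPM at 6 h and 52.4 and 61.02 CPM at 12 h without amino acids. Glucose starvation gave 177 and 171 CPM at 3 h, 313 and 317 CPM at 6 h and 209 and 216 CPM at 12 h. In Acat2 the 12 h libraries without glucose were as high as those of 6 h, whereas Idi1 and Sqle were past their peak. Without amino acids, Mvd ranged from 10.9 CPM at 6 h to 23.0 CPM at 12 h, Tm7sf2 from 4.35 to 5.17 CPM and Ebp from 15.8 to 23.0 CPM, all under the lowest control library of their gene. Of all tested genes, 78.4%, 81.8% and 82.6% likewise had no overlap with the control, in either direction, at 3, 6 and 12 h without amino acids.

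Other lists of sterol and lipid genes were read beside these 26 in the same fit. Of all tested genes, 32.3% rose and 33.3% fell at 6 h without amino acids, and 23.3% rose and 24.2% fell at 6 h without glucose, and the counts of each list are to be read against these shares. Of 17 further genes of SREBP activation and of sterol-regulated protein degradation, 9 rose and 5 fell at 6 h without amino acids (median 0.21), and 4 rose and 8 fell at 6 h without glucose (median -0.16). Rnf145, an E3 ligase known from mouse to act on Scap, had 30.7 CPM at 6 h without amino acids, 71.6 CPM at 6 h without glucose and 124 CPM in the control by group mean, lower in both comparisons with the control. Of 13 genes of fatty acid synthesis and desaturation, which are SREBP targets as well, 10 fell and 1 rose at 6 h without amino acids (median -0.72), while 8 rose and 5 did not pass at 6 h without glucose (median 0.31). Scd2, a fatty acid desaturase, stood at 123 CPM without amino acids, 1166 CPM without glucose and 1069 CPM in the control at 6 h or 0 h. Of 16 genes of the isoprenoid branch, 2 rose and 7 fell at 6 h without amino acids (median -0.12), and 4 rose and 4 fell without glucose (median 0.053). Of 16 genes of sterol binding and traffic the counts were 6 and 8 without amino acids (median -0.015) and 5 and 6 without glucose (median -0.035). Of 6 tested genes of sterol efflux and LXR targets they were 2 and 1 without amino acids, and 1 and 1 without glucose. All 12 genes of the ATF4 stress response were higher in each of the 6 comparisons with the control, in which 20.3% to 34.9% of all genes were higher, with medians of 2.90 without amino acids and 2.08 without glucose at 6 h. The medians over all genes were -0.0069 and -0.008001 in these comparisons. The stress genes thus moved 1 way in both starvations and the sterol enzymes 2 ways.

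**Figure D4:**
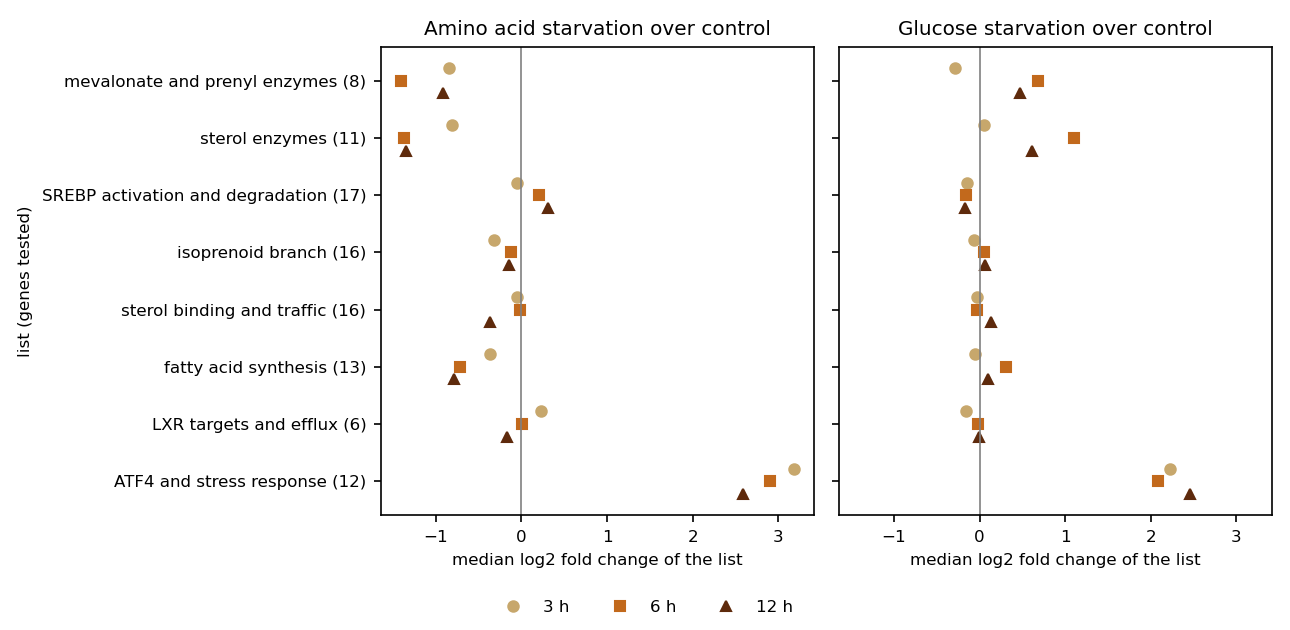
Median log2 fold change over the control of 8 gene lists (rows, with the number of genes tested) at 3, 6 and 12 h, for amino acid starvation on the left and glucose starvation on the right. The mevalonate and sterol enzymes lie left of 0 without amino acids and right of 0 at 6 and 12 h without glucose, fatty acid synthesis shows smaller shifts of the same signs at 6 h, and the ATF4 list lies far right in both.

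Of the 26 genes, 13 overlap another annotated gene in the GRCm38 annotation: Hmgcs1, Mvd, Idi1, Fdps, Fdft1, Lss, Cyp51, Tm7sf2, Insig2, Scap, Srebf1, Srebf2 and Ggps1. These overlaps are of whole gene spans and need not touch the counted transcripts. The sources used here do not say that counting used strand, so the counts of these 13 may include reads of an overlapping gene.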

How the data were processed

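The 14 libraries of total RNA from mouse embryonic fibroblasts were put in their 7 groups of 2 by the titles that the labels give. The authors deposited 1 table of unnormalised read counts, with a line for each transcript. Per the submitters' processing notes the build was GRCm39 and the tools STAR and bedtools. Versions, annotation, counting rules and strandedness are not given in the sources used here. Of 67457 lines, 58 lacked a gene name and carried 0% of reads. For 13432 of 40800 genes (32.9%) the table had more than 1 transcript, and each gene was represented by the transcript with most reads, since sums could count reads more than once.

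The software was edgeR 4.0.16 with limma 3.58.1, run under R 4.3.3. After filterByExpr 17696 genes remained, libraries were scaled with TMM, and a robust quasi-likelihood model of 7 group means was fitted to 14 libraries (7 residual degrees of freedom). The coefficient of variation, which edgeR terms biological, was 5.78%. Each gene's spread also drew on that of other genes, with a median of 20.9 prior degrees of freedom. Each SE is the absolute log2 fold change over the square root of the F statistic. Benjamini-Hochberg adjustment of two-sided p-values, with a threshold of 0.05, was made per comparison, for 12 comparisons and 2 added after seeing the data (12 h against 6 h). For 12 h without amino acids against the control, the test was also run on simulated counts. These had a common spread for all genes, so they do not show how the tests behave under the spread of the real data. Libraries held 35270751 to 55349673 reads, so that a count of 105 reads, the lowest among the 26 genes, limits precision for Lpin1 most. The 26 genes and all lists were chosen with earlier results of these data known. All 26 genes are named. Library values are given for the 5 control genes and, in each comparison of starvation with control and of the starvations, for the 3 called genes with the lowest and the 2 with the highest log2 fold change, and for some exceptions chosen after their values were seen. Alternatives were RLE factors, library totals, DESeq2 1.42.0, no filter, a stricter filter (CPM of 1 in 4 libraries), the mean over transcripts, only the groups compared, the replicate block and leaving out each library. Promoter windows are of RefSeq GRCm38.p6, a build other than that of the counts, and were used for their letters only. Levels in CPM are this work's own scaling of the deposited counts.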

Additional observations from a re-analysis of the deposited data

Results flagged for a closer look

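For 22 of the 26 genes, the log2 change from 3 to 12 h differed between amino acid and glucose starvation by a test of that difference (edgeR's interaction contrast, adjusted p under 0.05). In the same test 25.7% of all tested genes were called lower and 21.7% higher. Values are the change without amino acids minus the change without glucose. Among the mevalonate and prenyl enzymes the difference was -0.74 for Acat2, 0.47 for Hmgcs1, -1.06 for Mvk, -0.70 for Mvd, -0.89 for Idi1, -1.95 for Fdps and -0.42 for Ggps1. Among the sterol enzymes it was -0.95 for Fdft1, -0.84 for Sqle, -0.59 for Lss, -1.65 for Cyp51, -1.22 for Tm7sf2, -1.28 for Msmo1, -2.18 for Nsdhl, -1.29 for Hsd17b7, -0.46 for Ebp, -0.47 for Sc5d and 0.66 for Dhcr7. Among the genes of control and transport it was -0.54 for Scap, -0.53 for Srebf1, -1.19 for Srebf2 and -0.62 for Stard4. Hmgcs1 and Dhcr7 are the 2 with a positive difference. With library totals Ebp (-0.22, adjusted p = 0.171) and Ggps1 (-0.18, adjusted p = 0.284) did not pass. Groups of 2 libraries are too small for a check on single outlying libraries.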

How the results depend on the processing

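Turns of direction were counted only for genes called in the main fit or in the alternative, not for genes called in neither. Among these, directions turned with library totals alone: Scap at 3 h without glucose against the control (-0.15), Mvk (0.075), Idi1 (0.028), Insig1 (0.11), Insig2 (0.22) and Scap (0.18) between 12 h and 3 h without amino acids, and Scap between 12 h and 6 h (0.19). That scaling also gave 0 risers at 3 h without amino acids, 2 at 3 h without glucose, 2 genes higher without amino acids than without glucose at 12 h, 11 risers and 8 fallers between 12 h and 3 h without amino acids, and 4 higher in the difference of changes. It moved the median of all genes by -0.18 and 0.13 at 3 and 12 h without amino acids, by -0.17, -0.13 and -0.10 at 3, 6 and 12 h without glucose, by 0.24 between the starvations at 12 h, by 0.31 and 0.21 from 3 and 6 h to 12 h without amino acids, and by 0.25 in the difference of changes. The 1 gene higher without amino acids at 12 h, Ggps1, did not pass with RLE factors, without the filter or in DESeq2, which left 0. Leaving out 1 library moved the risers at 3 h without amino acids between 0 and 2, the fallers at 6 h without glucose between 1 and 2, the genes higher without amino acids at 12 h between 0 and 1, the risers from 3 to 12 h without amino acids between 3 and 7, and the risers from 6 to 12 h without glucose between 3 and 5. The numbers of all genes called stayed within 1.5 times their main value in every alternative. Of 8008 values of single genes, 141 lost and 69 gained a call. Beyond what each text passage names, the cause was not tested.

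Libraries with the same replicate number did not deviate together over all tested genes (correlations of -0.035 to 0.054 over 21 pairs of groups). A small shared effect, or one limited to few genes, would not be seen in this way, so a pairing is not excluded. With the replicate number as a block no call was lost, and 3 genes gained one: Hmgcs1 at 3 h without glucose (0.14), Scap from 3 to 12 h without amino acids (-0.13) and Srebf1 from 3 to 12 h without glucose (0.17).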
